A study of Sus scrofa with 6 samples.

Results

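Endothelial cells line the blood vessels and lymphatics, and in the embryo they arise from mesoderm and grow into and between the somites before muscle forms. They are held together by VE-cadherin, respond to VEGF and angiopoietins through receptor tyrosine kinases, and depend on transcription factors of the ETS, SOX and GATA families. Barcodes with open chromatin at genes of such cells, chosen by a count rule, were examined here in developing pig trunk tissue. In the 6 single-cell ATAC-seq libraries, 524 of 58809 kept barcodes (0.891%) had open chromatin at a set of endothelial genes well beyond the level of their library. Barcodes are called cells below, although no doublet caller was run.

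Single-cell ATAC-seq uses the transposase Tn5 to cut open DNA, and each cut carries the barcode of its droplet. The E18 and E21 tissue (embryonic days 18 and 21) was somite, the embryonic segment from which trunk muscle, vertebrae and dermis form. The E28 tissue (day 28) was myotome, the somite compartment that makes muscle. Each stage had 1 library of purebred Tibetan pigs (ZZ) and 1 of DurocxTibetan pigs (DZ), and each library pooled 5 embryos of 1 sow. The labels name no treatment. Stage and tissue cannot be told apart at E28, breed and sow cannot be told apart within a stage, and in pooled tissue the sex and origin of single embryos are not resolved.

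The members were chosen by their counts at 11 genes, CDH5, KDR, TEK, TIE1, ERG, PECAM1, MYCT1, ESAM, EGFL7, SOX18 and KLHL6. A cell was a member when it had 2000 to 30000 counts in peaks, at least 1 count in 4 or more of the gene windows (gene body plus 2 kb upstream), and a summed count in these windows of at least 3 times the library's mean share. EGFL7 had no window in the annotation used, so 10 of the 11 genes took part. The ZZ libraries of E18, E21 and E28 held 150, 62 and 35 members and the DZ libraries 174, 62 and 41. All counts at these 10 genes are the values that chose the cells, so they are described below without a test, and every test was run on other windows. The median member had between 9559 counts (E28 ZZ) and 13691 counts (E21 DZ), against medians of 8071 (E28 ZZ) to 11470 (E18 DZ) in the remaining cells. In both E18 libraries the members were shallower, with medians of 9581.5 against 10930 counts in ZZ and 10778.5 against 11470 in DZ. In all E21 and E28 libraries they were deeper, such as 13691 against 9675 counts in E21 DZ. Library pairs shared 113 to 157 kept barcodes, but no barcode was a member in 2 libraries.

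The regions that stood out most in the members are shown first, since they carry the strongest separation outside the rule genes. They were the called peaks, merged over the 6 libraries and over 100 kb from every rule gene, with the largest rise in members over remaining cells. Being higher in members of all 6 libraries, with at least 10 member counts in each, was part of this choice. Each sequence is the central 300 bases on the forward strand of Sscrofa11.1 and is named by the nearest gene start. Capitals mark the words CAGGAA and CCGGAA on either strand, the core letters bound by ETS factors such as ERG, ETS1 and FLI1. A match is a description of the letters and not evidence of binding.
CDK17, chr5:87143883-87144182: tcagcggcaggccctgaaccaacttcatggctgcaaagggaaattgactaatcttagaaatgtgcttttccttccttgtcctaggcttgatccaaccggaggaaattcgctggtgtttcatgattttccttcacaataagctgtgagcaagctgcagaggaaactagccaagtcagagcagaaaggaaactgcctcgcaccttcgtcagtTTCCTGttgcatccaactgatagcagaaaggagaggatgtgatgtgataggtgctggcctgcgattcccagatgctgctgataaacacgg
PSMG1, chr13:202711969-202712268: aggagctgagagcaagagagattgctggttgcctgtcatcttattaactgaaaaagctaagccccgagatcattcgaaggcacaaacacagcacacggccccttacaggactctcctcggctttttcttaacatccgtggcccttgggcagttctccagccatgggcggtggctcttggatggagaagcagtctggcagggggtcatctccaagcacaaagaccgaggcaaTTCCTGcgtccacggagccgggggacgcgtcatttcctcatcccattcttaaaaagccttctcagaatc
NFIB, chr1:208260109-208260408: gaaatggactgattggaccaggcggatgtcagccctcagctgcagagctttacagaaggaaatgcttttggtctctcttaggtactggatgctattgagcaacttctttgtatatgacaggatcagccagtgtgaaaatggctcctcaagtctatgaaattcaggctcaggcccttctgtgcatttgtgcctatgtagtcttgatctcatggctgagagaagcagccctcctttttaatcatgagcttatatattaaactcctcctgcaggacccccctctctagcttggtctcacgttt
WSCD1, chr12:51090311-51090610: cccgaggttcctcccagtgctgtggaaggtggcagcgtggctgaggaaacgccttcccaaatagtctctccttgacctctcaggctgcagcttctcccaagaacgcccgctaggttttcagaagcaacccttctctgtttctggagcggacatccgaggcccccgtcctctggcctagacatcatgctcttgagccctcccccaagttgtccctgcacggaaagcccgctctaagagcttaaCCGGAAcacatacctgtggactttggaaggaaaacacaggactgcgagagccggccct
ARGLU1, chr11:74380379-74380678: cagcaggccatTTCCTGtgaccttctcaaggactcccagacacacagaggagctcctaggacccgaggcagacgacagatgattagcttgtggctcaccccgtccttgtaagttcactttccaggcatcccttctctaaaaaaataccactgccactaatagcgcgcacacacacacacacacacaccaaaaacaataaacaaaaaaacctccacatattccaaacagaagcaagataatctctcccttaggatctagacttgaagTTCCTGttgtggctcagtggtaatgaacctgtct
ANKRD60, chr17:58428546-58428845: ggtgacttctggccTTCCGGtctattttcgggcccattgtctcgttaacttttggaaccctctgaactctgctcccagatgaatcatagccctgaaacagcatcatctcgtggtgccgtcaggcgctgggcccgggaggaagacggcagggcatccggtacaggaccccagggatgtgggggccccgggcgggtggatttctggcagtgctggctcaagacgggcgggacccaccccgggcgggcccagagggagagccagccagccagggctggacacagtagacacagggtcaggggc
SGK1, chr1:29377612-29377911: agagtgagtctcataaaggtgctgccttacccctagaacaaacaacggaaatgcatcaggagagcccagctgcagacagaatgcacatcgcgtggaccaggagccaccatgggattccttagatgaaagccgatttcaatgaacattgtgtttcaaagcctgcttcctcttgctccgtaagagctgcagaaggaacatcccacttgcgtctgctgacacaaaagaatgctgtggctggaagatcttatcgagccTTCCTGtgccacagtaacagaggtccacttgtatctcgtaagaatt
Of these 7 sequences, the one in NFIB held neither word, the ARGLU1 sequence held 2 and the other 5 held 1 each. Either word was present in 39.0% of all tested regions and in 65.8% of those higher by 2 or more on the log2 scale. The count therefore only describes these 7. The sequences near CDK17 and ARGLU1 also held the longer word AACAGGAA, a FOX and ETS composite, which was in 2.70% and 10.2% of the same 2 sets.

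The strongest region lay in an intron of the uncharacterised gene LOC102162163, 36099 bp from the start of CDK17 (a cyclin-dependent kinase gene), at chr5:87143591-87144474. Its level in members was 19.1, 55.1 and 85.9 CPM (counts per 1e6 counts of the class in that library; lowest, median and highest of the 6 libraries), and in the remaining cells 1.32, 1.74 and 2.94 CPM. The 2 classes did not overlap, and the difference was 4.58 ± 0.26 (log2, SE; edgeR's quasi-likelihood test blocked by library, adjusted p = 6.84e-65). A count was present there in 12.9% to 43.55% of the members of a library and in 0.506% to 1.54% of the remaining cells. The region therefore marked a minority of members in every library and few other cells.

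A region in an intron of NFIB, a nuclear factor I gene, at chr1:208259853-208260664, differed by 4.30 ± 0.39, with 20.4, 24.9 and 42.4 CPM in members against 0.568, 1.34 and 2.22 CPM. The region 63483 bp from the start of PSMG1, a proteasome assembly gene, at chr13:202711608-202712630, differed by 4.35 ± 0.40. It lies on the chromosome of ERG, 407035 bp from the ERG window. The levels at neither of these regions overlapped between the classes.

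A further 6 regions were near WSCD1 (4.22 ± 0.30), ARGLU1 (4.11 ± 0.35), ANKRD60 (3.999 ± 0.32), SGK1 (3.91 ± 0.38), PARD3B (3.82 ± 0.23) and SCAMP4 (3.81 ± 0.45), all on the log2 scale and none overlapping between classes. SGK1 encodes a serum- and glucocorticoid-inducible kinase, PARD3B a cell polarity protein and SCAMP4 a secretory carrier membrane protein. The SGK1 and PARD3B regions lay 248024 and 191812 bp from these starts, so nearest start is a label of position here. The rule that chose these 9 regions required a rise in 6 of 6 libraries. Each call held under all 12 alternatives run for it, but the regions were picked as the largest rises, so this describes the choice. The share of all tested regions without overlap was not counted.

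At the rule genes themselves, CDH5, which encodes VE-cadherin, had a count in 39.0%, 53.3% and 70.7% of members (lowest, median and highest library) and in 2.96%, 6.30% and 12.6% of the remaining cells. KDR, the main VEGF receptor of endothelium, was counted in 58.1% to 77.4% of members and 15.6% to 26.2% of the others. TIE1, an orphan receptor of the angiopoietin pathway, was counted in 51.4% to 71.0% and 8.30% to 24.4%. PECAM1, a junctional adhesion molecule also found on platelets and leukocytes, was counted in 60.0% to 82.9% and 14.6% to 28.5%.

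ERG, an ETS factor of endothelium, had the longest called sequence of the set (31799 to 43367 bp) and was counted in 83.3% to 97.6% of members and also in 50.8% to 55.5% of the remaining cells. MYCT1 had 387 to 910 bp of called sequence and was counted in 5.71% to 31.7% of members and 0.595% to 1.77% of the others. ESAM, a junction protein, was counted in 29.3% to 59.7% of members, SOX18 in 34.1% to 70.7% and KLHL6 in 17.1% to 36.2%.

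TEK, which encodes the angiopoietin receptor TIE2, had 55.8 CPM in the members of E18 ZZ, 82.0 in E18 DZ, 1.36 in E21 ZZ, 28.2 in E21 DZ, 22.2 in E28 ZZ and 21.96 in E28 DZ. The value of E21 ZZ rested on 1 count and lay below the 3.74 CPM of the remaining cells of that library, and in the other 5 libraries the members were higher. Called sequence in the TEK window fell from 5766 bp in E18 ZZ to 889 bp in E28 ZZ, so members and remaining cells can be compared within a library but not their levels between libraries.

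The share of members was 1.33% of kept cells in E18 ZZ (Wilson 95% interval 1.14% to 1.56%) and 1.73% in E18 DZ (1.49% to 2.001%). It was 0.668% in E21 ZZ (0.521% to 0.855%), 0.663% in E21 DZ (0.518% to 0.849%), 0.372% in E28 ZZ (0.268% to 0.517%) and 0.434% in E28 DZ (0.320% to 0.588%). The E18 intervals lay above those of E21, the ZZ and DZ intervals overlapped within each stage at this threshold, and of the E28 libraries DZ overlapped both E21 intervals and ZZ neither. With the stricter gate (5 windows, 4 times the mean share) the E21 intervals did not overlap, at 0.0296% to 0.141% in ZZ and 0.156% to 0.356% in DZ. The intervals cover counting error only and not the spread between embryos. With cells thinned to 4000 counts and the 468 to 1685 shallower cells of each library left out, the ZZ shares by stage were 1.84%, 0.519% and 0.329% and the DZ shares 2.24%, 0.670% and 0.335%. The peaks called over the rule windows also covered less sequence at later stages. In ZZ they spanned 100684, 72151 and 52054 bp in order of stage, whereas the DZ libraries had 93767, 81534 and 55935 bp. This length moved with the share, and its part in the difference was not tested.

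**Figure D1:**
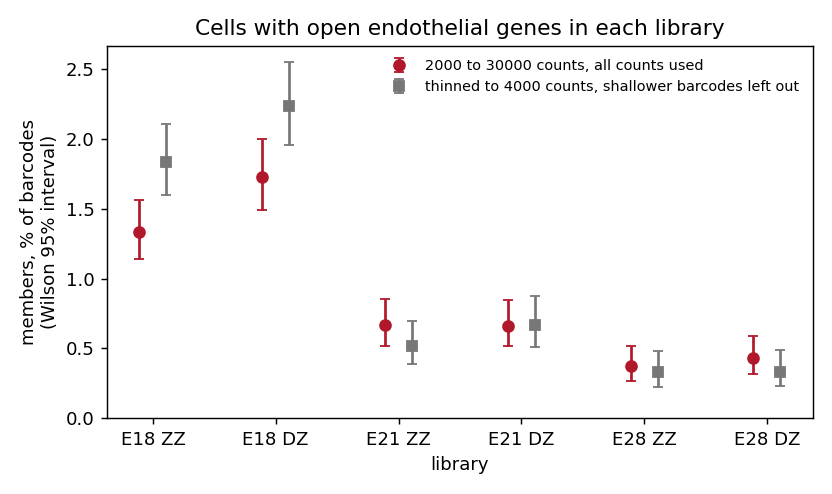
Share of kept cells that were members in each library (red circles) and after thinning to 4000 counts with shallower cells left out (grey squares), in percent, with Wilson 95% intervals. The 2 E18 libraries, at 1.33% and 1.73%, sit above the 4 later ones, which lie between 0.372% and 0.668%.

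The threshold cut through a continuous range. There were 219 members with a summed share of 3 to 3.5 times the library's mean and 435 cells just outside, with 4 or more windows and a share of 2.5 to 3 times the mean. There were 206 members with exactly 4 windows and 395 cells just outside with 3 windows and at least 3 times the mean. At 57 endothelial gene windows that had no part in the rule, members with 4, 5 and 6 or more rule windows had 4133, 4966 and 5836 CPM over all libraries. The cells just outside had 4376 CPM (share of 2.5 to 3) and 3480 CPM (3 windows), and all remaining cells 3051 CPM. Members with a share of 3 to 3.5 had 4897 CPM. In E28 ZZ, members with 5 rule windows (4688 CPM) were above those with 6 or more (4645 CPM). In E28 DZ, cells just outside with 3 windows (2651 CPM) were below the remaining cells (2759 CPM). The cells just outside by share were above the members with 4 rule windows over all libraries and in the E21 and E28 libraries. In both E18 libraries they were below them, with 4409 against 4470 CPM in ZZ and 4747 against 5104 CPM in DZ. In E21 ZZ, at 4216 CPM, they were above all members of that library (4192 CPM). The members are a range cut at a threshold. At a fixed depth of 4000 counts, the median member had a count in 12 of the 57 windows (516 cells, 8 shallower ones left out) and the median remaining cell in 8 (52131 cells). By library the medians of members and remaining cells were 13 and 9 in E18 ZZ, 13 and 8 in E18 DZ, 8 and 8 in E21 ZZ, 14 and 7 in E21 DZ, 9 and 7 in E28 ZZ, and 10 and 7 in E28 DZ. E21 ZZ thus showed no difference in this median, and 146 of the 516 members came from E18 ZZ and 173 from E18 DZ.

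**Figure D2:**
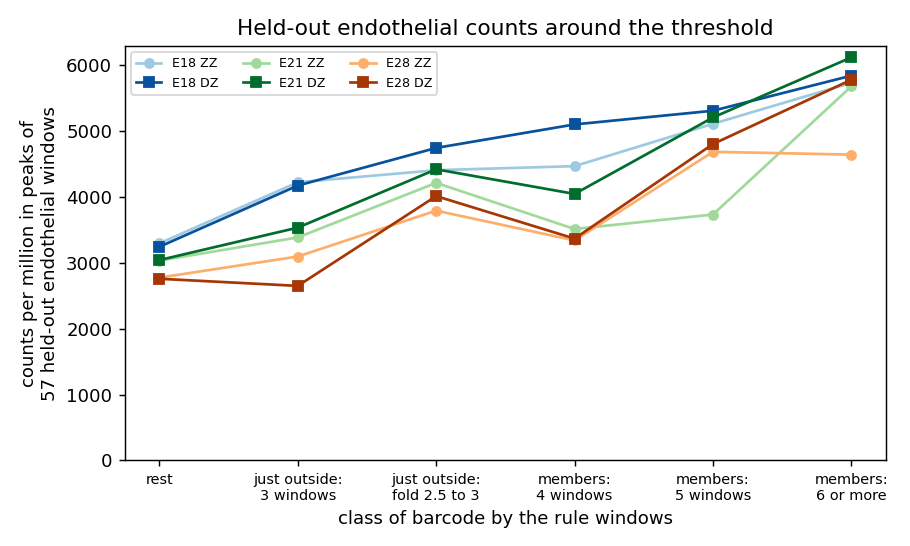
Summed CPM at the 57 endothelial windows outside the rule, for remaining cells, cells just outside either limit and members by number of rule windows, with 1 line per library. In every library the members with 6 or more rule windows are above the remaining cells, and the cells just outside with a share of 2.5 to 3 lie between the 2 groups.

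Outside the rule genes, 22928 gene windows were tested. Of these, 1511 were higher in members (6.59%) and 2173 lower (9.48%) at an adjusted p under 0.05, with a median difference over all windows of -0.05 on the log2 scale. Without TMM scaling the split was 1906 higher and 1809 lower, so the balance of rises and falls depended on the scaling. Of the 57 tested windows in 3 lists of endothelial genes (receptors and signalling, transcription factors, surface and junction), 42 were higher and none was lower by this test, and their median difference was 0.72. The lists hold genes known from endothelium and were chosen with results of these data in view, so the count describes them. Summed over the 57 windows, members had 3859 to 5569 CPM per library and remaining cells 2759 to 3297 CPM. The ratio on the log2 scale was 0.67 in E18 ZZ, 0.78 in E18 DZ, 0.47 in E21 ZZ, 0.87 in E21 DZ, 0.47 in E28 ZZ and 0.74 in E28 DZ, so no library went the other way.

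**Figure D3:**
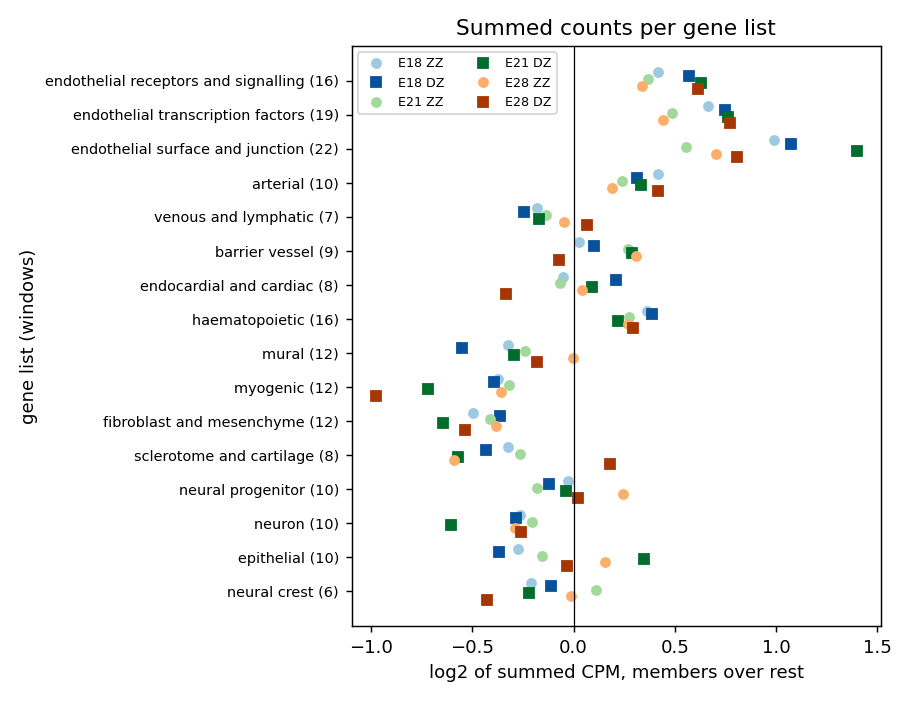
Log2 ratio of summed CPM in members over remaining cells for 16 gene lists, with the number of windows in brackets and 1 point per library (circles ZZ, squares DZ). The 3 endothelial lists are above 0 in all 6 libraries, whereas the myogenic and fibroblast lists are below 0 in all 6.

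Among receptors and signalling genes, 11 of 16 tested windows were higher, with a median of 0.64. ROBO4, a guidance receptor of endothelium, had 11.13, 32.4 and 58.6 CPM in members and 6.58, 8.85 and 11.3 CPM in the remaining cells (lowest, median and highest library). It rose by 1.77 ± 0.27 (log2, SE; adjusted p = 1.12e-08) and was higher in 6 of 6 libraries, although the lowest member value lay inside the range of the others. The ROBO4 window lies 89341 bp from that of the rule gene ESAM. GPR4, a proton-sensing receptor, had 7.33, 30.2 and 41.0 CPM in members against 5.57, 9.49 and 15.0 CPM and rose by 1.31 ± 0.28. PLXND1, the semaphorin receptor of vessels, had 69.6, 102 and 136 CPM against 28.2, 49.4 and 66.8 CPM, with no overlap, and rose by 1.04 ± 0.12. ENG, the endothelial co-receptor for TGF-β and BMP ligands, had 43.6, 75.6 and 111 CPM against 32.7, 39.1 and 50.9 CPM and rose by 0.86 ± 0.14.

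Smaller rises were seen at the VEGF receptors FLT1 (0.68) and FLT4 (0.59), the adrenomedullin receptor genes CALCRL (0.85) and RAMP2 (0.71), the phosphatase PTPRB (0.84), the sphingosine-1-phosphate receptor S1PR1 (0.59) and NOTCH4 (0.49). RAMP2 differed by 1.43 at E18 (adjusted p = 0.00286), 0.53 at E21 (0.612) and -0.45 at E28 (0.823), and members were lower in both E28 libraries. CALCRL differed by 1.05 at E18 (adjusted p = 0.0271), 1.10 at E21 (0.0701) and 0.21 at E28 (0.939). The semaphorin and VEGF co-receptors NRP1 (0.19, adjusted p = 0.198) and NRP2 (-0.01, adjusted p = 0.966) did not pass. ACVRL1 (0.34, adjusted p = 0.0848), ANGPT2 (0.24, adjusted p = 0.313) and EDNRB (0.14, adjusted p = 0.681) also missed the threshold over all libraries. By stage term, ANGPT2 differed by 0.67 at E18 (adjusted p = 0.0315), 0.37 at E21 (0.488) and -0.78 at E28 (0.166). EDNRB differed by -0.49 at E18 (adjusted p = 0.268), 0.29 at E21 (0.71) and 1.21 at E28 (0.0246). NOTCH1 and APLNR had no window on the chromosomes used.

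Among transcription factors, 16 of 19 windows were higher, with a median of 0.66. HHEX, a homeobox factor of the early vascular and blood lineages, had 65.4, 85.7 and 96.8 CPM in members and 17.9, 22.3 and 29.4 CPM in the remaining cells. The classes did not overlap, and the rise was 1.76 ± 0.15 (adjusted p = 3.27e-27). BCL6B, a zinc-finger repressor of the BCL6 family, had 77.7, 93.1 and 132 CPM against 24.1, 30.2 and 38.6 CPM and rose by 1.55 ± 0.13. SOX7 and SOX17 belong with the rule gene SOX18 to the SOXF group, which acts in vessel and arterial formation. SOX7 had 39.0, 65.5 and 85.4 CPM against 17.7, 23.01 and 32.9 CPM (1.37 ± 0.16), and SOX17 had 28.3, 35.9 and 51.3 CPM against 10.8, 14.2 and 17.4 CPM (1.34 ± 0.23). The levels of these 4 factors did not overlap between members and remaining cells across the libraries. The share of all windows without overlap was not counted, so non-overlap here and elsewhere only describes the genes named.

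The haemato-endothelial factors TAL1 (0.95), GATA2 (0.86) and LMO2 (0.72) were higher over all libraries, as were HLX (0.97), EPAS1 (0.81) and FOXO1 (0.49). By stage term, EPAS1 differed by 0.26 at E18 (adjusted p = 0.531), 1.22 at E21 (1.24e-07) and 1.06 at E28 (0.000276). FOXO1 differed by 0.47 at E18 (adjusted p = 0.0901), 0.79 at E21 (0.00247) and 0.08 at E28 (0.983). LMO2 differed by 0.93 at E18 (adjusted p = 0.00871), 0.64 at E21 (0.211) and 0.46 at E28 (0.648). At LMO2, members were lower in E28 ZZ, with 19.5 against 23.5 CPM. Of the ETS factors, ETS1 (0.66), ELK3 (0.52), ETV2 (0.40) and FLI1 (0.34) were higher, whereas ETS2 (0.29, adjusted p = 0.173), which lies 157768 bp from the ERG window, was not called. By stage term, FLI1 differed by 0.59 at E18 (adjusted p = 0.00189), 0.23 at E21 (0.499) and 0.15 at E28 (0.777). ETV2 differed by 0.61 at E18 (adjusted p = 0.0239), 0.15 at E21 (0.843) and 0.375 at E28 (0.534). KLF2 (0.42) and MECOM (0.33) passed, and KLF4 (0.29, adjusted p = 0.147) and FOXF1 (0.11, adjusted p = 0.694) did not.

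Among surface and junction genes, 15 of 22 windows were higher, and the median of 1.004 was the highest of the 3 lists. ICAM2, an endothelial adhesion molecule, had 20.4, 30.1 and 50.7 CPM in members and 2.44, 5.38 and 8.12 CPM in the remaining cells, with no overlap. It rose by 2.56 ± 0.30 (adjusted p = 1.9e-14), and its window lies 261339 bp from that of PECAM1. STAB1, a scavenger receptor of sinusoidal endothelium and macrophages, had 23.8, 52.0 and 103 CPM against 2.10, 9.35 and 36.2 CPM and rose by 2.23 ± 0.19. Its window overlaps those of NISCH and NT5DC2. CD93, a receptor of endothelium and myeloid cells, had 25.04, 63.9 and 88.7 CPM against 10.7, 15.9 and 17.0 CPM and rose by 2.02 ± 0.18. ECSCR, a surface sialomucin of endothelium, had 23.8, 57.1 and 98.96 CPM against 9.16, 15.9 and 19.4 CPM and rose by 1.83 ± 0.19. STAB1 levels overlapped between libraries of the 2 classes, those of the other 3 genes did not, and within each library all 4 were higher in members.

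The tight junction gene CLDN5 (1.17), the fenestral diaphragm gene PLVAP (1.38), the protocadherin PCDH12 (1.34), the adhesion receptor ADGRL4 (1.18), CLEC14A (1.05), CD34 (1.03) and the nitric oxide synthase NOS3 (0.87) were also higher. The Weibel-Palade body protein VWF differed by 0.49 (adjusted p = 0.000404), and members were higher in 4 of 6 libraries. In both E28 libraries members were lower, with 47.3 against 60.4 CPM in ZZ and 49.5 against 62.2 CPM in DZ, and the E28 term was -0.42 (adjusted p = 0.482). Not every endothelial gene rose over all libraries. EMCN, a sialomucin of veins and capillaries, differed by -0.49 (adjusted p = 0.494), JAM2 by -0.30 (adjusted p = 0.247), RASIP1 by 0.06 (adjusted p = 0.823), and STAB2, MMRN1, SLCO2A1 and PALMD by 0.24 to 0.59 (adjusted p from 0.0864 to 0.815). By stage term, STAB2 differed by 0.90 at E18 (adjusted p = 0.0203), -0.61 at E21 (0.516) and -0.34 at E28 (0.835). PALMD differed by 0.09 at E18 (adjusted p = 0.971), 1.26 at E21 (0.0412) and 0.50 at E28 (0.711).

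**Figure D4:**
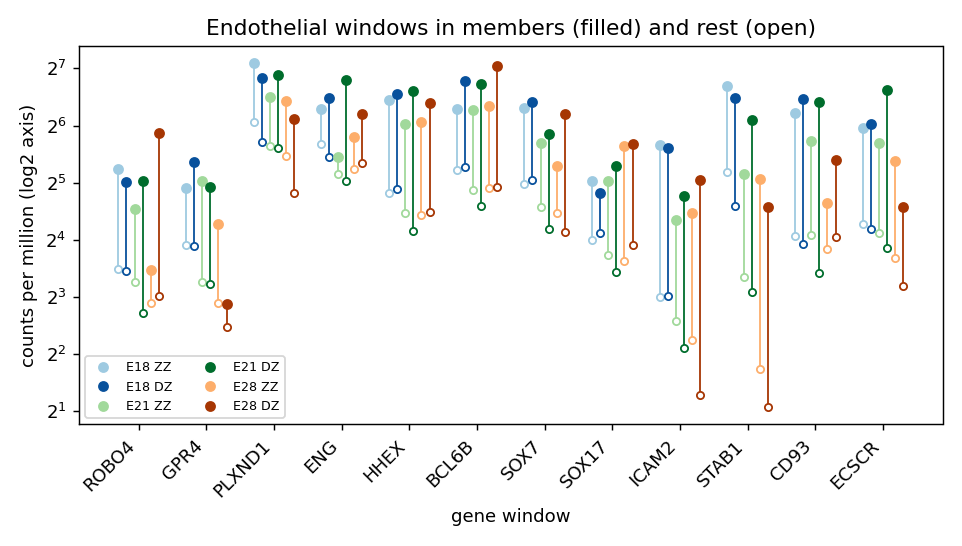
CPM of 12 endothelial gene windows outside the rule in members (filled) and remaining cells (open), on a log2 axis, with 1 line per library. Each filled point is above its open point, and member levels run from 7.33 CPM (GPR4) to 136 CPM (PLXND1).

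Genes of vessel subtypes were read next. Over all tested windows, 6.59% were higher in members and 9.48% lower. With 7 to 10 windows per list, 0 or 1 call is near those shares and describes single genes. Of 10 arterial windows, DLL4 and GJA4 were higher. DLL4, the Notch ligand of arteries and sprouting tips, had 159 CPM in the members of E18 ZZ, 117 in E18 DZ, 114 in E21 ZZ, 76.1 in E21 DZ, 64.0 in E28 ZZ and 78.8 in E28 DZ. The remaining cells of the same libraries had 64.5, 63.7, 53.0, 52.5, 40.9 and 31.7 CPM. DLL4 rose by 0.93 ± 0.12 (adjusted p = 4.21e-12) and was higher in members of 6 of 6 libraries. GJA4, a gap junction gene of arteries, rose by 1.71 ± 0.54 (adjusted p = 0.0132) on 57 member counts and was higher in 5 of 6 libraries. Its call was lost without E18 ZZ (1.86, adjusted p = 0.0515) and without E21 DZ (1.43, adjusted p = 0.0929). The other arterial genes, such as EFNB2 (0.04), HEY1 (0.10), HEY2 (0.01), GJA5 (-0.05) and CXCR4 (0.21), did not pass.

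No venous or lymphatic window of 7 was higher by this test, which is near the 6.59% of all windows. NR2F2, the venous fate factor, differed by -0.06 (adjusted p = 0.78), PROX1, the lymphatic fate factor, by -0.18 (adjusted p = 0.304), EPHB4 by 0.18 (adjusted p = 0.333) and LYVE1 by 1.22 (adjusted p = 0.506). RELN and PDPN fell, by 0.85 and 0.72 on the log2 scale. Both are also used outside vessels, RELN by neurons and PDPN by mesothelium and mesenchyme. RELN had 22.3, 31.5 and 57.2 CPM in members and 29.0, 69.5 and 77.3 CPM in remaining cells, lower in 6 of 6 libraries, and PDPN was lower in 5 of 6.

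Of 9 genes of brain-type vessels, the efflux pumps ABCG2 (1.15 ± 0.23, adjusted p = 1.47e-05) and ABCB1 (0.83 ± 0.25, adjusted p = 0.011) were higher. ABCG2 had 16.7, 34.2 and 53.3 CPM in members against 8.82, 14.5 and 20.8 CPM. The ABCB1 call was lost without either E18 library or E21 DZ (0.50 to 0.88, adjusted p from 0.0527 to 0.299). MFSD2A (-0.25) and SLC2A1 (-0.02) did not pass. Of 8 endocardial and cardiac windows, NFATC1, a factor of endocardium, was higher by 0.48 ± 0.11, with 69.5, 131 and 154 CPM against 67.0, 81.1 and 138 CPM. It differed by 0.77 at E18 (adjusted p = 0.000156), 0.27 at E21 (0.519) and 0.31 at E28 (0.495), and members were lower in E21 ZZ. The NFATC1 call was lost with promoters alone and with the stricter gate. NPR3, a natriuretic peptide receptor, fell by 0.38 ± 0.12, a call lost without E18 ZZ or E28 DZ (-0.34 and -0.21, adjusted p of 0.0862 and 0.277). By stage term it differed by -0.31 at E18 (adjusted p = 0.386), -0.08 at E21 (0.931) and -1.025 at E28 (0.00526). GATA4 and NKX2-5 did not pass (adjusted p of 0.559 and 0.201).

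Genes of other cell types were examined because blood cells and pericytes accompany vessels and share some of their genes. Of 16 tested haematopoietic windows, LYL1 and VAV1 were higher, against 6.59% of all windows. LYL1, a paralogue of TAL1 expressed in blood progenitors and endothelium, had 69.5, 91.3 and 122 CPM in members against 23.2, 28.2 and 33.2 CPM and rose by 1.73 ± 0.14 (adjusted p = 8.55e-31). Its window overlaps those of TRMT1 and NFIX. VAV1 rose by 0.56 ± 0.20, a call lost without either E18 library, E21 DZ or E28 DZ (adjusted p from 0.0543 to 0.131). The leukocyte gene PTPRC, which encodes CD45, differed by -0.68 (adjusted p = 0.134), SPI1 by 0.04 (adjusted p = 0.914), RUNX1 by 0.14 (adjusted p = 0.36) and the red cell factor KLF1 by -0.98 (adjusted p = 0.315). CD53 and GATA1 had no count in any library. Summed over the list, members had 563 to 783 CPM and remaining cells 459 to 609 CPM, higher in members of all 6 libraries. This sum includes LYL1, at 69.5 to 122 CPM in members against 23.2 to 33.2 CPM. The sum without LYL1 was not computed, and its part in the rise was not tested. The median difference of the 16 windows was 0.06, with 9 above 0. By stage term, ITGA2B differed by 0.20 at E18 (adjusted p = 0.918), 0.63 at E21 (0.689) and 2.06 at E28 (0.0473). The rule gene PECAM1 is itself used by blood cells, and the part of blood cells in the counts was not tested. When the same kind of rule was run on the haematopoietic list, 5 members passed (0.954%, against 0.692% of all kept cells).

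No mural, myogenic, fibroblast, sclerotome, neuron or neural crest window was higher by this test. Over all windows 6.59% were higher and 9.48% lower, so 0 higher in lists of 6 to 12 windows is near that share. Of 12 mural windows, 4 were lower: ACTA2 (-0.92 ± 0.24), PDGFRB (-0.59 ± 0.11), TAGLN (-0.55 ± 0.13) and NOTCH3 (-0.50 ± 0.13). PDGFRB, the receptor of pericytes and fibroblasts, had 77.0 to 126 CPM in members against 98.8 to 174 CPM and was lower in 6 of 6 libraries. The NOTCH3 call was lost without E18 DZ (-0.39, adjusted p = 0.0719). The pericyte gene RGS5 (-0.23) and CSPG4 (0.07) did not pass.

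Of 12 myogenic windows, 4 were lower. MYOG, the factor of muscle differentiation, fell by 1.56 ± 0.40 and had 0, 3.01 and 11.13 CPM in members against 6.32, 10.7 and 23.4 CPM. Its stage terms did not pass at E18 (-0.58, adjusted p = 0.714) or E28 (-1.66, adjusted p = 0.238). The E21 term passed (adjusted p = 0.000806), with a fitted size of -12.23 that cannot be read as a fold. The MYOG call was lost with no replicate block. PAX7 and PAX3, the factors of muscle progenitors, fell by 0.82 ± 0.11 and 0.55 ± 0.12 and were lower in 6 of 6 libraries. PAX7 had 55.0, 97.96 and 131 CPM in members against 127, 160 and 184 CPM. MYOD1 (-0.50, adjusted p = 0.167) and MYF5 (-0.61, adjusted p = 0.0577) did not pass over all libraries. By stage term, MYF5 differed by -0.34 at E18 (adjusted p = 0.715), -0.33 at E21 (0.789) and -1.79 at E28 (0.0418). Members thus kept counts at progenitor genes at a lower level than the remaining cells, not at 0. Of all members, 1 passed the same kind of rule on the myogenic list (0.191%, against 1.85% of kept cells).

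Of 12 fibroblast and mesenchyme windows, 8 were lower, the highest count of falls among the 16 lists. The collagen genes COL1A2 (-0.84 ± 0.17), COL3A1 (-0.83 ± 0.21) and COL1A1 (-0.82 ± 0.13) and the mesenchymal factor OSR1 (-0.62 ± 0.09) led. The COL3A1 call was lost with at most 20000 counts, without both E28 libraries, with no replicate block and with the stricter gate. Its stage terms did not pass at E18 (-0.40, adjusted p = 0.593), E21 (-1.11, 0.0519) or E28 (-1.26, 0.0504). COL1A1 differed by -1.29 at E18 (adjusted p = 4.28e-07), -0.77 at E21 (0.0188) and -0.32 at E28 (0.58). COL1A2 had 19.1, 27.8 and 36.6 CPM in members and 40.8, 45.8 and 62.6 CPM in the remaining cells, with no overlap. OSR1 had 166, 194 and 239 CPM against 259, 290 and 330 CPM, also with no overlap. PDGFRA (-0.43), PRRX1 (-0.46), MEOX1 (-0.52) and TWIST2 (-0.39) fell as well over all libraries. PRRX1 differed by -0.31 at E18 (adjusted p = 0.409), by -1.16 at E21 (adjusted p = 5.27e-05) and by 0.02 at E28, where members were higher in both libraries, with 100.2 against 94.2 CPM in ZZ and 91.6 against 84.8 CPM in DZ. Of 8 sclerotome and cartilage windows, COL2A1 (-0.74 ± 0.11) and SOX9 (-0.50 ± 0.16) were lower. The SOX9 call was lost without E18 DZ, E21 DZ or E28 DZ (adjusted p from 0.0571 to 0.211).

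Among neural windows, FABP7, a radial glia gene, fell by 1.11 ± 0.37 (adjusted p = 0.0211; 0.0981 without E18 DZ and 0.187 without E21 DZ, where the call was lost). The neuron genes NEUROD1 (-0.79 ± 0.22), INA (-0.76 ± 0.25), SYT1 (-0.54 ± 0.12) and ELAVL4 (-0.41 ± 0.14) were lower. NEUROD1 was lost without E21 ZZ (adjusted p = 0.0517), and INA and ELAVL4 without either E18 library or E21 DZ (adjusted p from 0.0644 to 0.258). OLIG2 was higher by 0.43 ± 0.16 (adjusted p = 0.0475) and was lost without either E18 library, E21 ZZ or E28 ZZ (adjusted p from 0.0718 to 0.179). Of 10 epithelial windows, KRT8 (-1.43 ± 0.30), TP63 (-1.01 ± 0.21) and CDH1 (-0.43 ± 0.16) were lower, and GRHL2 (0.45 ± 0.14) and CLDN6 (0.40) were higher. The CDH1 call was lost without either E18 library, E21 ZZ or E28 DZ (adjusted p from 0.0681 to 0.459), and that of GRHL2 without either E18 library or E21 DZ (adjusted p from 0.0612 to 0.15). No neural crest window of 6 passed, which is near the shares of all windows.

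Outside all lists, the largest rises among windows with at least 10 member counts in every library began with SSUH2, which had 20.4, 33.5 and 74.0 CPM in members and 1.42, 3.33 and 9.38 CPM in remaining cells. It rose by 3.27 ± 0.31 (adjusted p = 5.02e-21) and exceeded every endothelial list gene in size of difference. FNDC7 followed with 2.10 ± 0.23 (21.99, 38.1 and 87.0 CPM against 7.28, 10.2 and 12.1 CPM). F2RL3, which encodes the thrombin receptor PAR4, rose by 1.82 ± 0.20 and had 18.3, 50.8 and 88.1 CPM against 10.3, 14.7 and 16.6 CPM. The levels of these 3 genes did not overlap between the classes.

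MILR1 (1.82 ± 0.32), an immunoglobulin-like receptor of mast cells, lies 25696 bp from the PECAM1 window, and the part of its neighbour was not tested. ANKRD60 (1.80 ± 0.20) shares its window with PPP4R1L and holds 1 of the 9 regions above. The others were C8H4orf48 (1.74 ± 0.15), the adhesion scaffold CASS4 (1.72 ± 0.20), TMEM204 (1.68 ± 0.17), a membrane protein known from endothelium whose window overlaps IFT140, NRROS (1.65 ± 0.18), a TGF-β regulator of myeloid cells, and the caspase gene CASP10 (1.64 ± 0.17). Of these 10 genes, C8H4orf48 had the narrowest spread in the remaining cells, 21.4 to 25.3 CPM, against 55.7 to 128 CPM in members.

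The 5 largest falls were at low windows. Members had 2 counts in all at AADACL4, CPB1, LNP1 and LRRC30 and 1 count at BHLHA9, while remaining cells had medians of 2.59, 3.38, 4.51, 2.36 and 1.95 CPM. Members were lower in 6 of 6 libraries at each of them, which the rule that chose them required, and no fold is given at such counts. The call of BHLHA9 was lost without E18 ZZ (adjusted p = 0.0969), that of AADACL4 without E18 ZZ or E21 DZ (0.0537 to 0.0968) and that of LRRC30 without E18 ZZ or E18 DZ (0.146 to 0.185).

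The class difference was next read within each stage. In E18, E21 and E28, 35, 31 and 20 of the 57 endothelial windows were higher by their own stage term, with 324, 124 and 76 member cells, and the corresponding shares of all windows were 2.98%, 3.02% and 1.38%. None of the 57 was lower. The median difference of the 57 was 0.75 in E18, 0.69 in E21 and 0.65 in E28. The count of calls and the number of member cells were both lower at later stages, while the median changed little. By the test of the difference itself, 0 of the 57 were called between stages or breeds at an adjusted p under 0.05 in any of the 4 contrasts. These contrasts called 0.00872% to 0.105% of all windows, so 0 of 57 is near those shares and does not set the 57 apart.

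Over all windows, 24 (0.105%) differed between E28 and E18 in the class difference, 2 (0.00872%) between E21 and E18 and 3 (0.0131%) between E28 and E21. Of the 24, 5 rose and 19 fell, whereas DESeq2 called 76, of which 53 rose and 23 fell, so the balance of directions depended on the tool. Called sequence differed between libraries, and each contrast rests on the difference between members and remaining cells within a library. The kinase gene JAK3, used by cytokine receptors of lymphocytes, had 62.4, 48.6, 49.0, 58.7, 47.3 and 77.0 CPM in members, given by stage and within a stage as ZZ, then DZ. The remaining cells had 57.5, 61.2, 30.9, 22.5, 13.3 and 13.7 CPM in the same order. Members were lower than the remaining cells in E18 DZ and higher in the other 5 libraries, and the contrast was 2.30 ± 0.38. Peaks covered 5672 bp (ZZ) and 5133 bp (DZ) of the JAK3 window at E18, against 2536 and 2222 bp at E28, so levels are not compared between libraries. SEMA3F, a secreted semaphorin that repels endothelial cells and axons, had 108.5, 104.3, 104.9, 127.2, 102.9 and 124.6 CPM in members and 89.5, 87.0, 55.4, 57.04, 43.9 and 40.7 CPM in the remaining cells, in the same order (1.14 ± 0.27, adjusted p = 0.0408). Members were higher in 6 of 6 libraries there.

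PTPRO (2.02 ± 0.48), GPATCH1 (1.76 ± 0.42) and PACSIN1 (1.35 ± 0.33) were the other rises. PTPRO had 14.3 and 17.0 CPM at E18 and 27.8 and 40.3 CPM at E28 in members, against 45.2 and 53.4, then 24.3 and 27.7 CPM, in remaining cells. PACSIN1 had 50.02 and 57.6 CPM at E18 in members and 114 CPM in E28 ZZ but 42.1 CPM in E28 DZ, against 72.6 and 82.5, then 46.2 and 34.1 CPM, in remaining cells. Among the falls, the kinase SRC had 147, 141, 136, 50.02, 16.7 and 18.3 CPM in members and 146, 147, 152, 124, 59.3 and 51.6 CPM in remaining cells (-1.65 ± 0.38). TLR9 had 108, 99.1, 65.4, 69.6, 27.8 and 10.99 CPM in members against 64.4, 62.8, 37.4, 35.0, 45.4 and 31.1 CPM (-1.80 ± 0.41). NISCH, whose window overlaps that of STAB1, had 142 and 158 CPM at E18 and 41.7 and 40.3 CPM at E28 in members, against 58.1 and 55.2, then 42.4 and 49.9 CPM, in remaining cells (-1.63 ± 0.33).

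TEAD4 had 20 and 27 member counts at E18 and 0 in both E28 libraries and in E21 ZZ, with 3.64 to 17.03 CPM in remaining cells. MYOZ3, a sarcomere protein gene, had 64 and 93 member counts at E18 and 0 in both E28 libraries, where remaining cells had 19.03 and 9.56 CPM. The fitted sizes of these 2 contrasts are not bounds. A count of 0 in the 35 and 41 members of the E28 libraries allows up to 3 counts in each, for counting error only. All 10 named stage contrasts lost their call when 1 of the E18 or E28 libraries was left out, JAK3 without E18 DZ or E28 DZ (1.90 to 2.06, adjusted p from 0.258 to 0.871) and the other 9 without any of the 4 (adjusted p from 0.0703 to 1).

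FILIP1, which encodes a filamin-binding protein, was 1 of the 2 windows with a difference between E21 and E18 and was named after its values were seen. It had 74.1 and 102 CPM in members at E18, 135 and 190 CPM at E21, and 55.6 and 174 CPM at E28, against 56.1 and 76.0, 50.2 and 48.7, then 51.2 and 82.0 CPM in remaining cells (1.30 ± 0.25, adjusted p = 0.0032). Without E18 ZZ or without E18 DZ, edgeR called 0 windows in this contrast (355 and 409 at an unadjusted p under 0.05), so its call was lost. ARHGAP25, a Rac regulator of blood cells, was 1 of the 3 between E28 and E21, also named after its values were seen. Members had 42.2 and 68.5 CPM at E21 and 11.13 and 9.16 CPM at E28, and remaining cells 23.5 and 18.6, then 27.5 and 23.03 CPM (-2.77 ± 0.56, adjusted p = 0.0141). Without either E18 library or without E28 ZZ, edgeR called 0 windows in that contrast (906 to 1666 at an unadjusted p under 0.05), and its call was lost.

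Between breeds, 5 windows (0.0218%) differed in the class difference, all lower in DZ. With the breeds paired within stage, a fit added after the data were seen, 10 differed, 8 lower and 2 higher in DZ, and the 4 windows described here were called (adjusted p from 0.0196 to 0.037). CPA4 had 8.45, 47.7 and 89.0 CPM in ZZ members and 9.91, 13.1 and 14.7 CPM in DZ members at E18, E21 and E28. The remaining cells had 23.7, 50.8 and 57.8 CPM in ZZ and 26.7, 58.6 and 70.7 CPM in DZ (-1.67 ± 0.38). Members were lower than the remaining cells in 5 libraries and higher in E28 ZZ. PPP2R2B had 113, 143.1 and 41.7 CPM in ZZ members and 78.8, 43.5 and 3.67 CPM in DZ members, and the remaining cells 30.6 to 137 CPM over the 6 libraries (-1.14 ± 0.25). Members were higher than the remaining cells in E21 ZZ (125.1 CPM in the latter) and lower in the other 5 libraries. CACNA2D3, a calcium channel subunit gene, had 115, 154 and 114 CPM in ZZ members and 175, 179 and 139.8 CPM in the remaining ZZ cells. In DZ it had 72.7, 72.9 and 62.3 CPM against 194, 209 and 121 CPM (-0.95 ± 0.21). SLC14A2, a urea transporter gene, had 66.3, 158 and 242 CPM in ZZ members against 131, 191 and 294 CPM, and 44.4, 78.3 and 126 CPM in DZ members against 121, 243 and 290.5 CPM (-0.92 ± 0.21). At CACNA2D3 and SLC14A2 members were lower than the remaining cells in 6 of 6 libraries. All 4 had an adjusted p of 0.0451, DESeq2 called none, and each was lost when 1 of 4 libraries was left out (adjusted p from 0.0546 to 1). These were the E21 and E28 libraries for CPA4 and PPP2R2B, and E18 DZ, both E21 libraries and E28 ZZ for CACNA2D3 and SLC14A2.

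Single regions gave a finer view than gene windows. Of 78485 tested regions with a peak in all 6 libraries, 3018 were higher in members (3.85%) and 7786 lower (9.92%), with a median difference over all of them of -0.43 on the log2 scale. The split was 2070 higher and 2466 lower with no replicate block (class alone, no term for the library), and 839 higher and 7520 lower with the stricter gate, so the balance depended on these choices. Among 605 regions whose nearest start belonged to a gene of the 3 endothelial lists, 125 were higher (20.7%) and 54 lower (8.93%), and 49 genes had at least 1 higher region. The share of higher regions was 18.7% for receptors, 21.5% for transcription factors and 21.5% for surface genes. Around fibroblast genes 0 of 187 regions were higher and 45 lower (24.1%), and around myogenic genes 0 of 95 were higher and 22 lower (23.2%). The counts of higher regions were also 0 of 51 around mural, 0 of 114 around neural progenitor, 0 of 77 around neuron and 0 of 45 around neural crest genes. Each count used the same edgeR test at an adjusted p under 0.05, by which 3.85% of all regions were higher. In sets this small, 0 is near that share and describes these genes only.

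All 4 regions nearest to DLL4 were higher, 1 at the promoter and 3 distal, and were looked at after their values were seen. The distal region at chr1:130395498-130397470, 10072 bp from the start, had 43.6, 80.2 and 103 CPM in members and 3.78, 7.44 and 11.2 CPM in remaining cells (3.16 ± 0.18, adjusted p = 8.52e-62). Its neighbour at chr1:130398185-130400483 rose by 2.75 ± 0.33 and the third distal region, at chr1:130373456-130376438, by 1.28 ± 0.17. The promoter region rose by 0.80 ± 0.14, so the distal regions separated the classes more than the promoter. Around SOX17, 8 of 11 regions were higher, by 1.04 to 3.29, and around SOX7 4 of 5, by 1.63 to 3.67. The region with 3.67 ± 0.41 lies in an intron of PINX1, 48043 bp from the SOX7 start, and had no member count in E21 ZZ.

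By position, promoters (overlapping 2 kb upstream of a start) made up 17.8% of the tested regions, 363 of the 3018 higher ones and 8.52% of the lower ones. Introns made up 35.7%, 41.9% and 41.5%, and distal sequence 31.4%, 30.3% and 36.2%. Both directions of difference therefore held fewer promoters than the tested set. The median width was 1366 bp for tested, 1523.5 bp for higher and 1637 bp for lower regions.

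The letters of the regions differed as well. Within the central 300 bases, an ETS word (CAGGAA or CCGGAA, either strand) was present in 39.0% of tested regions, 56.3% of higher regions, 65.8% of the 1122 regions higher by 2 or more on the log2 scale, and 33.9% of lower regions. Outside promoters the shares were 38.9%, 58.2% and 33.9% for tested, higher and lower regions. The composite AACAGGAA, which contains an ETS word, was in 2.70%, 7.32%, 10.2% and 2.08%. An AP-1 word (TGANTCA) was in 9.31%, 15.8%, 20.5% and 9.84%, a SOX word (ACAATG or ACAAAG) in 29.1%, 35.2%, 39.9% and 31.0%, and a nuclear receptor word (AGGTCA) in 16.8%, 21.6%, 24.8% and 18.3%.

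Other words were counted in the same way. A GATA word (AGATAA) was in 11.4% of tested, 12.2% of higher and 13.5% of lower regions. A KLF word (CCNCNCCC) was in 43.1%, 49.2% and 36.8%, the E-box CAGCTG in 24.0%, 27.6% and 29.1% and the MEF2 word in 3.05%, 3.18% and 2.72%. A TEAD word (GGAATG) was in 18.3%, 17.2% and 22.7%, more frequent in lower regions. In the 1122 regions higher by 2 or more, the GATA, KLF, E-box, MEF2 and TEAD words were in 13.5%, 44.4%, 32.2%, 3.74% and 18.1%. The KLF word was in 65.4% of the 492 regions higher by under 1 on the log2 scale, whose median GC content was 59.2%. Median GC content was 51.7% in tested, 53.3% in higher and 49.0% in lower regions, and its part in these shares was not tested. Regions share letters and neighbours and were not counted as replicates, so no test is given.

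**Figure D5:**
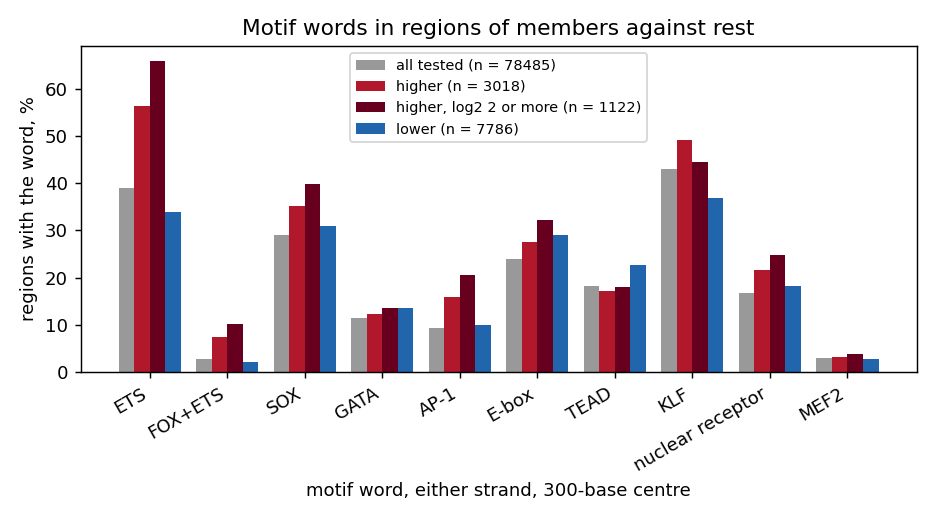
Share of regions (percent) with each motif word in the central 300 bases, for all tested regions (grey), regions higher in members (red), those higher by 2 or more on the log2 scale (dark red) and regions lower in members (blue). The ETS word rises from 39.0% to 65.8% across the first 3 groups and is in 33.9% of lower regions.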

How the data were processed

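Chromatin accessibility was measured by single-cell ATAC-seq in 6 libraries of pig somite (E18, E21) and myotome (E28), 1 per stage and breed. Per the labels and the study's methods, the authors processed the reads with Cell Ranger ATAC, Seurat 3.1.1 and Signac 0.2.2 on Sscrofa11.1 and called peaks separately in each library. The values they deposited are raw counts, the number of Tn5 cuts of a barcode inside a peak, and were not normalized, so a count exists only where a library had a peak.

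Barcodes with 2000 to 30000 counts were kept (58809 of 64439). Filters of the study that need other values were not used here, and no doublet caller was run. The members and the gene lists were chosen with earlier results of these data known. Of the members, 13 (2.48%) also passed a like rule on 1 of 7 lists of other cell types, against 6.64% of kept barcodes. Gene windows (27469 RefSeq genes, release 106 of Sscrofa11.1, gene body and 2 kb upstream) took the counts of all peaks that they overlapped by 1 bp or more. The 10 rule windows and 3 more that share a peak with them were left out of tests and library sizes.

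Counts were summed per library and class, giving 12 sums of 359922 to 131495878 counts, and tested with edgeR 4.0.16 (R 4.3.3; quasi-likelihood, TMM, filterByExpr, library as a block, Benjamini-Hochberg over all tested windows or regions, threshold 0.05). Both classes of a library were counted over the same peaks, which differ between libraries, and the part of peak calling in the contrasts was not tested. Class terms within stage and a class by breed term gave the stage and breed contrasts, which rest on 2 libraries per stage and 3 per breed. SE is the log2 difference divided by the square root of F. Libraries differ in embryos and sow, and cells were never used as replicates. DESeq2 1.42.0 was an alternative. The scripts were tested on simulated data. Regions are peaks merged over libraries. They were assigned to promoter, exon, intron or distal sequence in this order. Named genes were the rule genes, up to 4 called windows with the largest difference in each list and defining genes that did not pass, the 10 largest rises and 5 largest falls outside the lists (same direction in 6 libraries, at least 10 counts in every library of the higher class), the 10 strongest regions over 100 kb from a rule gene (9 described, 7 with sequence), and the 5 largest stage and breed differences in each direction. The strongest regions met the same limits on direction and counts. Further genes named from the lists, FILIP1, ARHGAP25 and the regions near DLL4, SOX7 and SOX17 fall outside this rule and were chosen after their values were seen. A gene window and a region that met this rule are not reported here.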

Additional observations from a re-analysis of the deposited data

Results flagged for a closer look

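The following results stood out because the difference between members and remaining cells itself differed between groups of libraries by edgeR's quasi-likelihood test (adjusted p under 0.05). Between E28 and E18, the log2 difference changed by 2.30 at JAK3, 2.02 at PTPRO, 1.76 at GPATCH1, 1.35 at PACSIN1 and 1.14 at SEMA3F. It changed by -1.80 at TLR9, -1.65 at SRC and -1.63 at NISCH. The fitted changes at TEAD4 (-14.08) and MYOZ3 (-12.36) come from 0 member counts in both E28 libraries and are not sizes that can be read as a fold. Between DZ and ZZ, the log2 difference changed by -1.67 at CPA4, -1.14 at PPP2R2B, -0.95 at CACNA2D3 and -0.92 at SLC14A2. Stage and tissue cannot be told apart at E28, and each stage and breed had 1 library.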

How the results depend on the processing

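The count of 3684 windows that differed between members and remaining cells was 879 with no replicate block (class alone), 1278 with promoters alone and 777 with the stricter gate (5 windows, 4 times the share). The terms of E18, E21 and E28 gave 1587, 1444 and 774, and leaving out 1 library gave 2448 (without E18 DZ) to 3591. Of the 57 endothelial windows, 42 were higher, against 26 with no replicate block, 20 by the E28 term, 13 with the stricter gate and 34 to 43 with 1 library left out. The 10804 regions became 4536 with no replicate block and 5963 (without E18 DZ) to 10236 with 1 library left out, with 6086 without E21 DZ and 6983 without E18 ZZ. Stage contrasts were unstable. E21 against E18 gave 2 windows, 6 by DESeq2, 5 with the stricter gate and 0 to 15 with 1 library left out (15 without E21 ZZ). E28 against E21 gave 3, and 0 to 53 (53 without E21 ZZ). E28 against E18 gave 24, 76 by DESeq2, 39 with the stricter gate and 0 to 48 (0 without E18 DZ or E28 DZ). The breed contrast gave 5, 0 by DESeq2, 10 with the breeds paired within stage (chosen after seeing the data) and 0 to 16 (0 without E21 ZZ, E21 DZ or E28 ZZ). Some contrasts changed sign. CDH1 was 0.21 in the E21 term (adjusted p = 0.804), and with the stricter gate JAK3, PTPRO and PACSIN1 were -12.03, -11.63 and -13.25 (adjusted p of 0.8, 0.862 and 0.618), on 2 member cells in E28 ZZ and none in E28 DZ, which was dropped from that fit. The share of members was 0.180% with the stricter gate over all libraries (by stage, ZZ had 0.347%, 0.0646% and 0.0213% whereas DZ had 0.367%, 0.235% and 0%) and 1.07% when thinned to 4000 counts (1.84% in E18 ZZ, 2.24% in E18 DZ and 0.519% in E21 ZZ). A share of 0 of 9450 cells allows up to 0.0406%. For the named windows, members against remaining cells, 1096 of the alternative values kept the call and direction, 236 lost the call and 1 reversed. The named contrasts of E28 against E18 kept 39, lost 48 and reversed 3, the breed contrasts kept 12 and lost 20, and the 120 values of the named regions kept both. The cause of these changes was not tested. The libraries carry no replicate numbers beyond 1, so the block is the library. E28 held 76 member cells, and the part of their number in its lower counts of calls was not tested.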
